A study of Drosophila melanogaster with 3 samples.

Results

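The summits of CG13894 binding that lie between genes, but close to them, numbered 1002 of the 7434 summits in the authors' thresholded list (13.5%). A summit is the point of highest enrichment in a peak of chromatin immunoprecipitation and sequencing (ChIP-seq). It was included when it lay outside every annotated transcript and over 500 bp to 10000 bp from the nearest annotated transcription start site (TSS). CG13894 is a Drosophila melanogaster protein known by its gene number. The embryos, whole and collected at 2 to 24 h, came from 1 transgenic line whose CG13894 protein carries, at the C-terminus, green fluorescent protein (GFP), and sonicated chromatin was precipitated with an anti-GFP antibody. There were 3 biological replicates of this 1 group, all from the same line, and no untagged or otherwise different group to compare them with. Whole embryos mix all embryonic cell types and ages, so a summit cannot be assigned to a tissue.

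The sequence between fly genes holds enhancers, which act on promoters at a distance, insulators, which separate regulatory domains, and the ends of transcription units. Fly genes lie close together, so a site near a gene is often near several, and the nearest gene need not be the one a site acts on. Further classes from the same list served for comparison. They were the 2371 summits inside introns at the same distances from a TSS, and the 3240 promoter summits within 500 bp of a TSS.

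Of the strongest intergenic summits outside the region over the CG13894 gene described below, 6 are printed because they show the sequence under the highest enrichment. Each is 81 bp of the reference centred on the summit (dm6, plus strand) and is named by the gene with the nearest TSS. Capitals mark the 5-letter word AGATC or its reverse complement GATCT, which returns later in these results.
bond, chr3R:22557275-22557355: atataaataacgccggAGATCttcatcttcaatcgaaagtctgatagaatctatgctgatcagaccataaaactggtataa
Acp76A, chr3L:19048901-19048981: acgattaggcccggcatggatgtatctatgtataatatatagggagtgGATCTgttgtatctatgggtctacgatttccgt
DNAlig3, chr3R:12403097-12403177: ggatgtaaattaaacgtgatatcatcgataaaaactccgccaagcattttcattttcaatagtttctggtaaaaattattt
lncRNA:CR44363, chr3L:11406834-11406914: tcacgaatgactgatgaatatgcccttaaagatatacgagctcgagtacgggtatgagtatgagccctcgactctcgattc
lncRNA:CR43802, chr2L:17041371-17041451: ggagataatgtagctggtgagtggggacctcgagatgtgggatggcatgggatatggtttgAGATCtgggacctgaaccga
lncRNA:CR9162, chr2L:6077144-6077224: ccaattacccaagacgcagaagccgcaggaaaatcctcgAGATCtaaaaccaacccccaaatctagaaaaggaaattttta
The word stood in 4 of these 6 stretches, those named for bond, Acp76A, lncRNA:CR43802 and lncRNA:CR9162, and not in those named for DNAlig3 and lncRNA:CR44363.

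A second set shows words that were more frequent at intergenic summits than in the sequence they lie in. Each is 61 bp centred on the word (dm6, plus strand), from the strongest summit that holds it on the arms printed, with the word in capitals. The word near jp is the core recognised by ETS factors, the word near ey is the DRE bound by DREF, and the word near lncRNA:CR45248 is a GC palindrome. The word near CG5568 is part of the consensus of the fly insulator protein CTCF.
jp, chr2L:9567445-9567505: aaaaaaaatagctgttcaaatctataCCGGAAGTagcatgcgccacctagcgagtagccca
ey, chr4:696909-696969: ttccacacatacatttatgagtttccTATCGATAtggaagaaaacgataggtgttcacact
lncRNA:CR45248, chr3L:10953810-10953870: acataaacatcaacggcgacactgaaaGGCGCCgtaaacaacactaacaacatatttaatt
CG5568, chr3L:5869770-5869830: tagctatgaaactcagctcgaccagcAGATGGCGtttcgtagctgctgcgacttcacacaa

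The density of summits was lower between genes than in introns at matched distances, and it fell with distance from the TSS. Over the 23.4 Mb of intergenic sequence that meets the rule there were 42.9 summits per Mb, against 66.9 per Mb in introns, 181 per Mb in promoters and 9.72 per Mb in intergenic sequence over 10000 bp from a TSS. When each replicate's own 7434 strongest peaks were placed in the same way, 1031, 987 and 921 of them were intergenic near genes. The densities were 41.9 ± 2.37 per Mb between genes and 65.8 ± 0.251 per Mb in introns (SD, n = 3 replicates), lower between genes in 3 of 3 replicates. A two-sided exact sign-flip permutation test over 3 replicates cannot give a p below 0.25. The intergenic and intronic densities gave p = 0.25 by this exact test (adjusted p = 0.273 over 12 comparisons). So did each other of these 12 in which the 3 replicates had the same sign. Densities by arm and at gene ends were not tested. With 3 differences of the same sign this p is 0.25 whatever their spread, so it reports only that the signs agree.

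By distance, the intergenic density was 70.6 per Mb at over 500 to 1000 bp, 56.0 per Mb at over 1000 to 2000 bp, 39.3 per Mb at over 2000 to 5000 bp and 28.1 per Mb at over 5000 to 10000 bp. The matching intronic densities were 103, 81.4, 62.4 and 48.6 per Mb. The nearest bin exceeded the farthest 2.51-fold between genes and 2.12-fold in introns. Over replicates this ratio was 2.66 ± 0.328 between genes and 2.14 ± 0.203 in introns (SD, n = 3), larger between genes in 3 of 3 replicates. The median intergenic summit lay 2326 bp from its nearest TSS, with quartiles of 1185 and 4428 bp. The rule's limits cut through a continuous distribution: 49 summits lay at over 500 to 600 bp, and 49 intergenic summits at over 400 to 500 bp fell just outside. At the far limit, 9 summits lay at over 9500 to 10000 bp and 15 at over 10000 to 10500 bp. Median signal was 371 in the first of these 4 sets, 328 in the second, 298 in the third and 334 in the fourth.

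**Figure D1:**
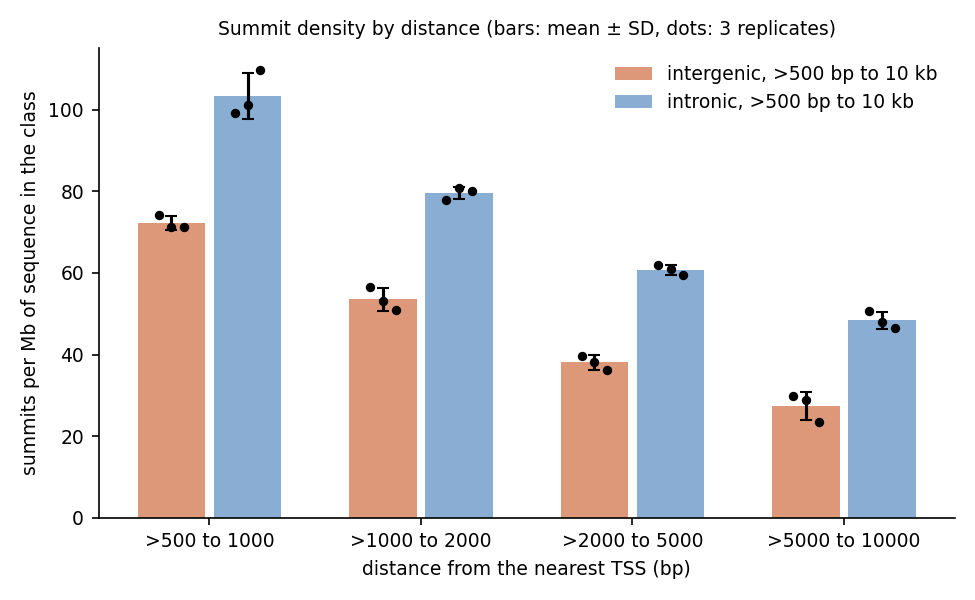
Summits per Mb of eligible sequence (vertical axis) in 4 bins of distance from the nearest TSS in bp (horizontal axis), for intergenic (left bars) and intronic (right bars) summits; bars are means with SD over 3 replicates and dots are the replicates. The intergenic means fall along the bins from 72.2 to 27.4 per Mb and stay below the intronic means, which fall from 103 to 48.3 per Mb.

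Intergenic summits lay more often on the upstream side of their nearest TSS. Of the 1002, 660 were upstream and 342 downstream, which is 65.9% upstream, against 61.0% of the eligible bases. In the replicates 66.7%, 64.7% and 65.0% were upstream, above the share of bases in 3 of 3. This did not hold in all 3 replicates with protein-coding genes only (66.8% upstream, against 65.0% of bases, exact sign-flip p = 0.75) or over 1000 to 10000 bp (60.1%, against 58.4%, exact sign-flip p = 0.5). The difference was concentrated close to the TSS. At over 500 to 1000 bp there were 78.6 summits per Mb upstream, against 38.0 per Mb downstream (replicate means 80.3 ± 2.70 and 39.2 ± 2.76, SD, n = 3). The downstream value rests on 21 summits in 0.553 Mb. Since eligible bases lie outside every transcript, a downstream base in this bin lies past the end of a transcript shorter than 1000 bp. The 2 sides therefore lie beside different sets of genes. At over 1000 to 2000 bp the values were 58.4 per Mb upstream and 51.0 per Mb downstream, and the replicate means differed by little more than their SDs (54.8 ± 2.69 and 50.8 ± 3.70). Beyond that, the order was not kept: 37.6 per Mb upstream against 41.7 per Mb downstream at over 2000 to 5000 bp, and 29.2 per Mb upstream against 26.8 per Mb downstream at over 5000 to 10000 bp.

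The gaps between genes also differed by the orientation of the genes beside them. Gaps between divergent genes, which hold the start of a gene at both edges, had 51.1 summits per Mb. Tandem gaps had 41.0 per Mb and convergent gaps, with a gene end at both edges, had 38.0 per Mb. The replicate means were 50.4 ± 3.98 per Mb in divergent, 39.2 ± 2.76 per Mb in tandem and 39.0 ± 1.76 per Mb in convergent gaps (SD, n = 3). Divergent gaps were above each of the other kinds in 3 of 3 replicates (exact sign-flip p = 0.25), while tandem and convergent gaps differed by less than their SDs.

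Summits were also dense just past the 3′ ends of genes. Within 500 bp past an annotated 3′ end there were 138 summits in 2.19 Mb, or 63.2 per Mb, against 40.8 per Mb in the rest of the eligible sequence (64.4 ± 2.52 and 39.6 ± 2.74 per Mb, SD, n = 3 replicates). At gene ends the density did not fall with distance from the nearest TSS. It was 56.5, 66.2, 66.7 and 70.3 per Mb over the 4 distance bins from near to far, while elsewhere it was 76.0, 54.0, 37.6 and 27.1 per Mb. In the nearest bin gene ends thus had the lower density (replicate means 57.8 ± 3.40 per Mb at gene ends and 77.8 ± 3.57 per Mb elsewhere). In the farthest bin they had the higher one (78.9 ± 14.8 and 26.3 ± 3.45 per Mb, SD, n = 3), although only 11 summits there were at gene ends. These splits by bin were made after the unsplit values were seen and carry no test.

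Per chromosome arm, density was 92.1 per Mb on the small arm 4, from 15 summits, 57.2 per Mb on 3L, 43.8 per Mb on 2L, 38.1 per Mb on 3R, 36.1 per Mb on 2R and 33.7 per Mb on X. The replicate means were 90.04 ± 3.54 per Mb on 4, 54.4 ± 3.84 on 3L, 42.3 ± 0.410 on 2L, 37.7 ± 3.63 on 3R, 36.9 ± 1.30 on 2R and 33.1 ± 4.06 on X (SD, n = 3). X was below 3R and below 2R in 3 of 3 replicates, and 3R was above 2R in 2 of 3. Leaving out the region over CG13894 lowered 3L to 55.6 per Mb. Transposons, which the rule does not treat as genes, held 7 of the summits (0.699%), while they make up 8.06% of the eligible bases. In introns they held 0.380% of the summits and made up 5.47% of the bases. Whether reads can be assigned to such sequence was not tested.

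The signal of intergenic summits was close to that of intronic summits and below that of promoter summits. Signal is the authors' score for a peak and has no unit. Outside the CG13894 region its median was 323 over 994 intergenic summits, with quartiles of 256 and 444, 324 over 2367 intronic summits and 363 over 3237 promoter summits. Relative to the list's median, intergenic summits stood at 0.957, intronic summits at 0.959 and promoter summits at 1.08. The ratio of intergenic to intronic medians was 0.998 in the thresholded list. In the replicates it was 0.971, 1.01 and 1.01, above 1 in 2 of 3 (exact sign-flip p = 1). The ratio of intergenic to promoter medians was 0.888, and 0.901 ± 0.0231 in the replicates (SD, n = 3), below 1 in 3 of 3. Signals over 1000 occurred in 46 intergenic summits (4.63%), 106 intronic summits (4.48%) and 239 promoter summits (7.38%), again outside that region.

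**Figure D2:**
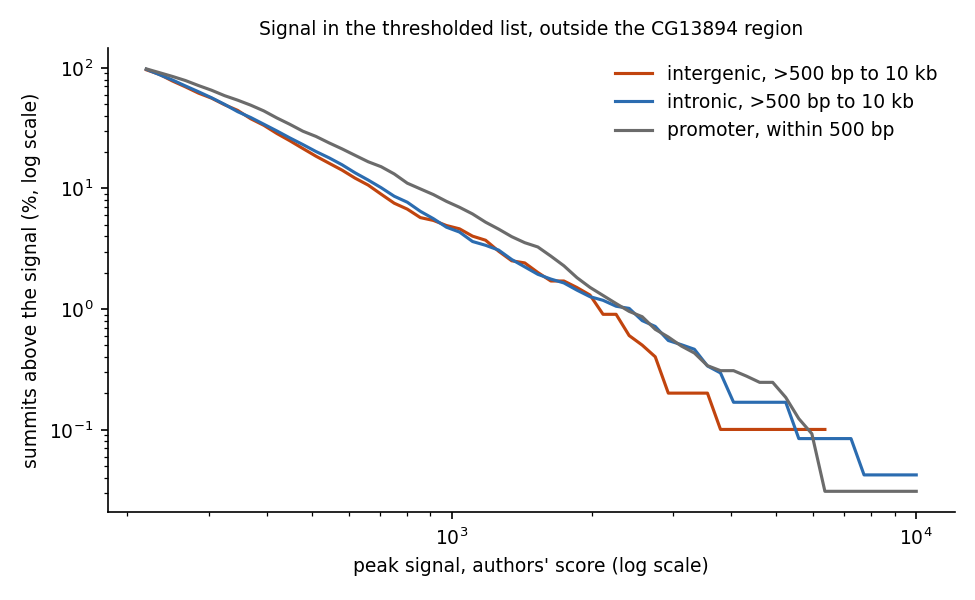
Share of summits above a given signal (vertical axis, %, log scale) against signal, the authors' score (horizontal axis, log scale), for intergenic, intronic and promoter summits outside the CG13894 region. The intergenic and intronic curves overlap through most of the range, with medians of 323 and 324, and the promoter curve lies above them up to signals near 2000.

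Of the intergenic summits, 589 (58.8%, 95% Wilson interval 55.7 to 61.8) lay within a peak among the strongest 7434 in each of the 3 replicates, against 60.6% of the whole thresholded list. The intronic share was 58.1% and the promoter share 64.6%. Only 15 intergenic summits (1.497%) were in a strongest peak of no replicate, and 931 (92.9%) lay in some peak of all 3 replicate lists of 30000 peaks each. The thresholded list was itself derived from these replicates with a cutoff on the irreproducible discovery rate. High shares were therefore partly fixed in advance. Across the intergenic summits outside the CG13894 region that both replicates had, Spearman's rho between replicate signals was 0.687, 0.670 and 0.665 for the 3 pairs (n = 952, 939 and 945 summits). The summits share their libraries, so these are descriptions. In the pooled list, outside the CG13894 region, the same sequence took 13.2% of the 91 peaks at ranks 1 to 100 and 10.3% at ranks 101 to 1000. Below that its share was 12.5% at ranks 1001 to 3000, 14.5% at ranks 3001 to 7434, 17.7% at ranks 7435 to 15000 and 20.1% at ranks 15001 to 30000.

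The 20 strongest intergenic summits outside the CG13894 region had signals of 1535 to 6558 and were found in every replicate, at a rank of 246 or better. The strongest was in the convergent gap between bond and sit on 3R, both of which encode proteins of the family of very-long-chain fatty acid elongases. Its summit, 2778 bp downstream of the bond TSS, had a signal of 6558 and ranked 9 in the thresholded list, and 9, 10 and 9 in replicates 1, 2 and 3. A further summit of the 20, 3290 bp upstream of sit in the neighbouring gap, had a signal of 2104 and ranks of 109, 99 and 83.

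The second strongest lay between nkd, which encodes the Wnt antagonist Naked cuticle, and Acp76A, an accessory gland protein gene. Its signal was 3743, and its ranks were 27, 26 and 27. The same gap held a weaker summit nearest to nkd, with a signal of 404 and ranks of 3525, 2241 and 3290. The third, in the short convergent gap of 437 bp between Sol1 and Cyp9f2, was nearest to the TSS of DNAlig3, which encodes a DNA ligase. It had a signal of 2872 and ranks of 53, 50 and 40.

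Among the rest of the 20, Ip6k, an inositol hexakisphosphate kinase gene, had a summit with a signal of 2714, 542 bp upstream, at ranks of 40, 82 and 70. Gbs-76A, which encodes a glycogen-binding subunit of protein phosphatase, had one with a signal of 2370 at ranks of 66, 81 and 77. CG1888 had summits on both sides, with signals of 2072 in the convergent gap to brp and 1855 in the divergent gap to lncRNA:CR43651. SK, a calcium-activated potassium channel gene, carried the strongest intergenic summit of the X, with a signal of 1895 and ranks of 103, 118 and 154. The nearest TSS belonged to a noncoding RNA gene at 6 of the 20, including lncRNA:CR44363 with a signal of 2840, lncRNA:CR43802 with 2492 and lncRNA:CR9162 with 2372. Summits nearest to tej, a piRNA pathway gene, and CycB, the Cyclin B gene, had signals of 1589 and 1576. On arm 4 the strongest was 515 bp upstream of Asator, with a signal of 1264 and ranks of 291, 274 and 239.

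The region on 3L from 695224 to 705922, over CG13894 itself, held 8 further intergenic summits, all in the divergent gap between CG13894 and lncRNA:CR44514. Their signals were 36459, 9180, 5746, 1644, 1620, 1539, 1023 and 242. The strongest, 717 bp upstream of CG13894, ranked 1 in the thresholded list and in each replicate, and the weakest ranked 948, 16450 and 2240. The embryos carry a tagged copy of this gene, and whether that copy contributes to the enrichment here was not tested.

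Many intergenic summits shared a gap between genes with another. Gaps differ in length, and the share to be had from length alone was not worked out. The summits fell in 683 of the 6462 gaps with eligible sequence (10.6%). Of these gaps, 502 held 1 summit, 110 held 2, and 71 held 3 or more, and 500 summits (49.9%) shared their gap with another. Merged by the authors' regions, the 1002 summits formed 933 separate stretches, of which 55 held more than 1. The fullest gap was 20910 bp between lncRNA:CR44603 and lncRNA:CR45695 on 2L, with 9 summits at a median spacing of 2164 bp. Its signals were 256 to 1222, with the highest at ranks of 265, 309 and 286. Its closest neighbours were 201 bp apart, and whether summits so close are separate sites was not tested. Outside the CG13894 region the next were the gap from lncRNA:CR45251 to CG6163, with 7 summits and signals of 231 to 923, and that from CG5290 to lncRNA:CR43174, with 7 summits and signals of 220 to 457. The gap of 5886 bp between Hacd1 and Rh5, an opsin gene, held 6 summits with a median signal of 516, and each of these lay in a strongest peak of all 3 replicates.

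**Figure D3:**
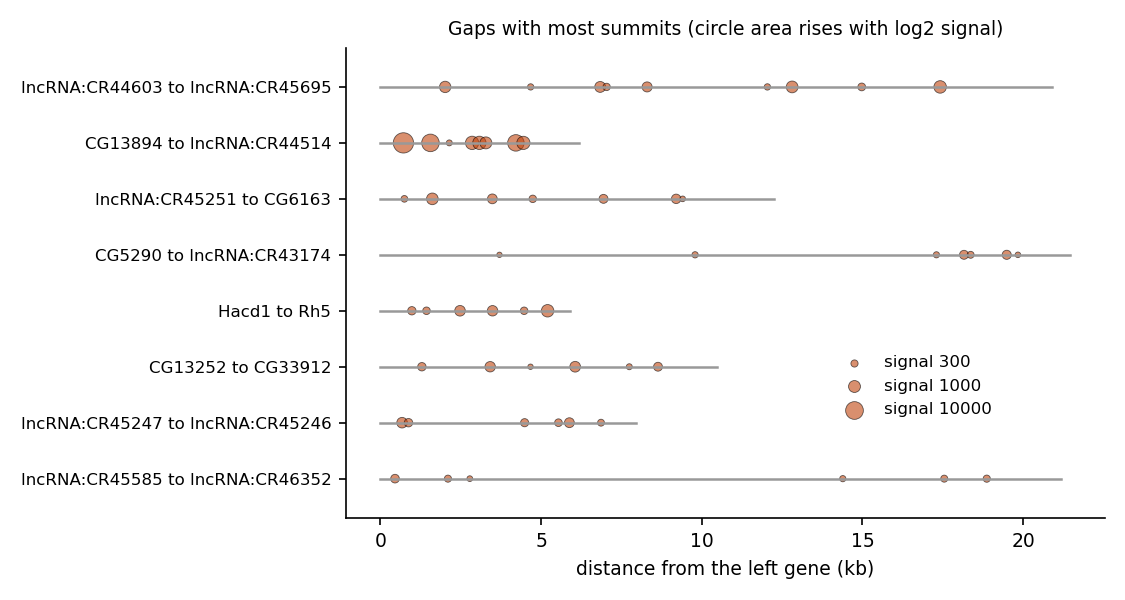
The 8 gaps between genes with the most intergenic summits (rows, named by the genes at their left and right edges); the line is the gap, its length in kb on the horizontal axis, and each circle is a summit whose area grows with the log2 of its signal. The gap beside CG13894 holds the largest circles, up to a signal of 36459, and the Hacd1 to Rh5 gap has 6 summits spread along 5886 bp.

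The nearest gene had a promoter summit at a minority of intergenic summits, though more often than at the eligible intergenic bases. For 278 of the 1002 intergenic summits (27.7%, 95% Wilson interval 25.1 to 30.6) the nearest gene also had a promoter summit, against 1389 of 2371 intronic summits (58.6%). Over all 17896 genes the share with a promoter summit was 20.2%. The replicates gave 28.8 ± 1.10% for intergenic and 58.7 ± 0.882% for intronic summits (SD, n = 3), lower for intergenic ones in 3 of 3. The genes near each class differ before any summit is counted: a gene with a promoter summit was nearest at 11.3% of the eligible intergenic bases and at 33.6% of the intronic ones. With protein-coding nearest genes alone, the shares were 32.2% for intergenic and 64.4% for intronic summits. Where both were present, the intergenic summit had a higher signal than that gene's strongest promoter summit in 108 of the 278 (38.8%). This count keeps the summits of the CG13894 region. The median distance from an intergenic summit to the nearest promoter summit of any gene was 11488 bp.

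The nearest TSS was of a protein-coding gene at 655 summits (40.7 per Mb of the sequence nearest to such a TSS) and of a noncoding RNA gene at 328 (47.9 per Mb). Replicate means were 39.9 ± 1.89 and 46.7 ± 3.79 per Mb (SD, n = 3). The 18 gene lists used to describe the nearest genes mostly held few summits, so they are given by counts beside the density of 42.9 per Mb over all eligible sequence. The 28 stress transcription factor genes had 8 summits in 0.0269 Mb, or 297 per Mb, at 3 genes. These were foxo, the forkhead factor of insulin and stress signalling, with 4, Atf3, a basic leucine zipper factor, with 3, and CrebA, with 1. The foxo summits, all upstream, had signals of 1483, 1297, 487 and 436. The strongest 2 held steady ranks of 181, 224 and 225 and of 272, 259 and 282 in replicates 1, 2 and 3. The Atf3 summits had signals of 349, 285 and 228, with replicate ranks between 3210 and 8618. The list was counted at 9, 8 and 6 summits in the replicates.

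The Polycomb and trithorax list had 4 summits at 2 of 31 genes in only 0.0152 Mb, or 262 per Mb, and 3, 2 and 4 in the replicates. The genes were ph-d, a Polyhomeotic gene, whose stronger summit had a signal of 640, and psq, whose stronger summit had 347. In so little sequence 1 summit changes the density greatly, so the high densities by list describe few genes. Of 27 Wnt and Hedgehog genes, 5 carried 7 summits in 0.0712 Mb, or 98.3 per Mb, but the replicates had 3, 4 and 6. Among these genes were nkd, ptc, the Hedgehog receptor gene, with a signal of 363, and pan, the Tcf gene, with 309. Growth control and insulin genes had 5 summits at 4 of 35 genes in 0.0424 Mb, or 118 per Mb, and 5 in each replicate. They included Thor, the 4E-BP gene, with 411, scyl with 295 and bun with 254. EGF receptor and FGF genes had 4 summits at 3 of 26 genes, or 59.2 per Mb, and 6, 4 and 4 in the replicates. They were Mkp3, a phosphatase of the pathway, with a signal of 696, sty, which encodes Sprouty, with 282, and aop with 277. The 77 segmentation and homeobox genes had 10 summits at 10 genes, or 26.3 per Mb, and 8 in each replicate, the highest at ey, an eye-specification gene, with 713, bowl with 522 and odd with 352. The 124 cuticle protein genes had 8 summits, or 46.6 per Mb, and 8, 10 and 9 in the replicates, the strongest at Cpr76Ba with 525. The 179 chemosensory receptor genes had 8, or 18.9 per Mb, and 10, 9 and 6 in the replicates, the strongest at Or45b with 485.

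Of the other lists, axon guidance and adhesion had 5 summits at 5 of 40 genes, or 33.3 per Mb, led by Toll-7 with a signal of 280, and apoptosis had 2, or 50.9 per Mb, at rpr with 436 and wgn with 310. Notch and E(spl) had 1, or 24.5 per Mb, at mib1 with 236, and ecdysone and nuclear receptors 1, or 20.5 per Mb, at Hr38 with 576. Antimicrobial and immune effectors had 1, or 52.7 per Mb, at PGRP-SA with 443. Cytoplasmic ribosomal proteins had 1, or 13.2 per Mb, at RpS23 with 348. The BMP and TGF-beta, JAK-STAT, glycolysis and sugar use, and heat shock and chaperone lists had 0 in the thresholded list. Their eligible sequence was only 0.0102, 0.0194, 0.00411 and 0.0273 Mb, too little for a count of 0 to show a low density. The heat shock and chaperone list had 0, 1 and 1 in the replicates.

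The sequence at intergenic summits held more G and C than the eligible intergenic sequence, and was flanked by sequence that held less. In 200 bp windows the GC content was 44.5% at intergenic summits, 42.9% at intronic summits and 41.7% at promoter summits, against 40.9% in all 200 bp tiles of the eligible intergenic sequence. Over replicates it was 44.4 ± 0.698% at intergenic and 42.9 ± 0.495% at intronic summits (SD, n = 3), higher at intergenic ones in 3 of 3. Along 100 bp windows the GC content was 44.6% at the intergenic summits and 38.8% and 38.0% at 500 bp to either side. Intronic summits also stood above their flanks, with 42.4% at the summit and 39.1% at 500 bp to either side. Their course differed close to the summit, where GC content dipped from 43.6% and 43.3% at 100 bp to either side. Promoter summits had 41.3% at the summit and 42.5% and 42.4% at 500 bp to either side. TAATTA, the core recognised by many homeodomain factors and made of A and T only, followed the reverse course at intergenic summits. It stood in 2.41% of windows at the intergenic summit and in 9.36% and 8.45% at 500 bp to either side. For intronic summits the shares were 4.64% at the summit and 7.68% and 7.09% at 500 bp to either side. They were lower than at the summit, 4.18% and 3.92%, at 100 bp to either side.

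**Figure D4:**
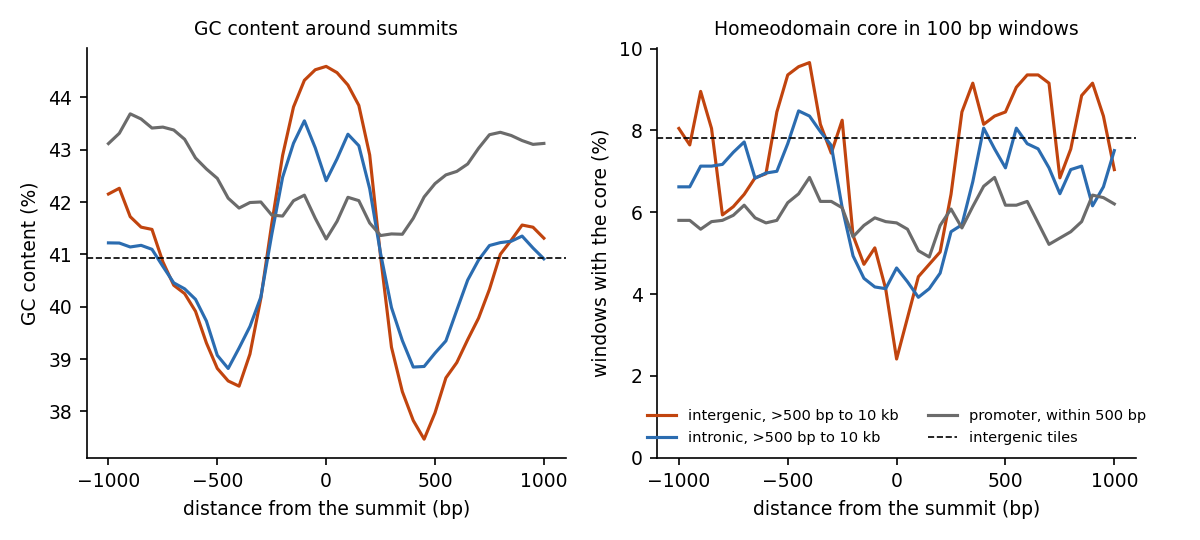
GC content in % (left) and the share of 100 bp windows with the homeodomain core in % (right) against distance from the summit in bp, for intergenic, intronic and promoter summits; the dashed line is the value in tiles of the eligible intergenic sequence. At intergenic summits GC content peaks at 44.6% and the homeodomain core is lowest at 2.41%.

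In the 200 bp windows, counted on both strands, 14 of 27 motifs were more frequent at intergenic summits than in the tiles in all 3 replicates and 11 were less frequent. Against intronic summits, 9 were more frequent and 14 less frequent in all 3 replicates (smallest adjusted exact sign-flip p = 0.293 over 27 motifs). The palindrome GGCGCC was in 5.99% of intergenic windows, 3.12% of intronic windows and 2.51% of tiles, and in the replicates in 5.61 ± 0.174% of intergenic and 3.56 ± 0.270% of intronic windows (SD, n = 3). The ETS word CCGGAAGT was in 10 intergenic windows (0.998%), 0.0844% of intronic windows, 0.278% of promoter windows and 0.358% of tiles. Its intronic level lay below that of the tiles. The DRE word TATCGATA was in 10 windows (0.998%), 0.380% of intronic windows and 0.3598% of tiles, but in 6.70% of promoter windows. GAGAG, bound by GAGA factor, was in 23.8% of intergenic windows, 28.8% of intronic windows and 19.9% of tiles. The CA repeat CACACACA was in 5.99% of intergenic windows, 8.81% of intronic windows and 4.60% of tiles. TAATTA was in 7.39% of intergenic windows, 8.39% of intronic windows and 15.1% of tiles. A match is a stretch of letters and does not show that the factor binds there.

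Among 3082 words of 8 letters found in at least 12 windows, CGAATACG had the highest ratio to the tiles, 6.21, with 17 windows (1.70%). GATGGCGC and AGATGGCG, which overlap in 7 letters and belong to the CTCF consensus, followed among the first 8 in that order. AGATGGCG was in 26 intergenic windows (2.59%), 1.05% of intronic windows, 1.204% of promoter windows and 0.564% of tiles, at a median of 31 bp from the summit. These words were ranked on the windows they describe, so their ratios are a description.

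A shorter word was frequent at the strongest intergenic summits, although most of them lacked it. Of 512 words of 5 letters, each taken with its reverse complement, 142 occurred in at least 10 of the 100 bp windows of the 50 strongest intergenic summits outside the CG13894 region, and AGATC had the highest ratio to the tiles. It was in 19 of the 50 windows (38.0%, 95% Wilson interval 25.9 to 51.8), against 8.72% of 100 bp tiles. In the replicates' own 50 strongest it was in 16, 19 and 12. The words next in order were ATCGG, in 15 of 50 windows against 10.03% of tiles, and GATCC, in 11 of 50 against 7.94%. AGATC was picked from these windows, so its share there is a description.

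At intergenic summits the share of AGATC windows declined with rank, but the strongest intergenic windows chose the word, which raises the top of this decline. Among intergenic summits it was 6 of 12 at ranks 1 to 100 of the list, 8 of 20 at ranks 101 to 300, 12 of 72 (16.7%) at ranks 301 to 1000, 30 of 249 (12.05%) at ranks 1001 to 3000 and 47 of 641 (7.33%) at ranks 3001 to 7434. The replicate means over the same ranks were 49.2 ± 9.29%, 33.9 ± 9.79%, 13.7 ± 2.98%, 11.7 ± 0.894% and 8.55 ± 1.02% (SD, n = 3). Replicate 1 did not keep the order in the first 2 bins, with 38.5% and 40.9%. The intronic and promoter summits played no part in choosing the word. At ranks 1 to 100 it was in 7 of 30 intronic windows (23.3%, interval 11.8 to 40.9) and 7 of 44 promoter windows (15.9%, interval 7.93 to 29.4). At ranks 101 to 300, 301 to 1000 and 1001 to 3000 the intronic shares were 19.6%, 11.5% and 10.7%. The promoter shares there were 11.1%, 7.69% and 7.62%, the last 2 below the tiles. At ranks 3001 to 7434 the word was in 8.98% of intronic and 9.02% of promoter windows, next to the 8.72% of tiles. The intronic order was not kept in replicate 2 (10.2%, then 16.0% at ranks 301 to 1000) or in replicate 3 (22.6%, then 22.9% at ranks 101 to 300). Replicate means at ranks 1 to 100 were 23.003 ± 1.82% at intronic and 15.4 ± 0.195% at promoter summits (SD, n = 3). These SDs are the spread over replicates and do not reflect the small number of windows. The promoter interval above includes the 8.72% of tiles. The intergenic shares at the top ranks come from windows that chose the word, which raises them, so they were not compared with the intronic and promoter shares.

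**Figure D5:**
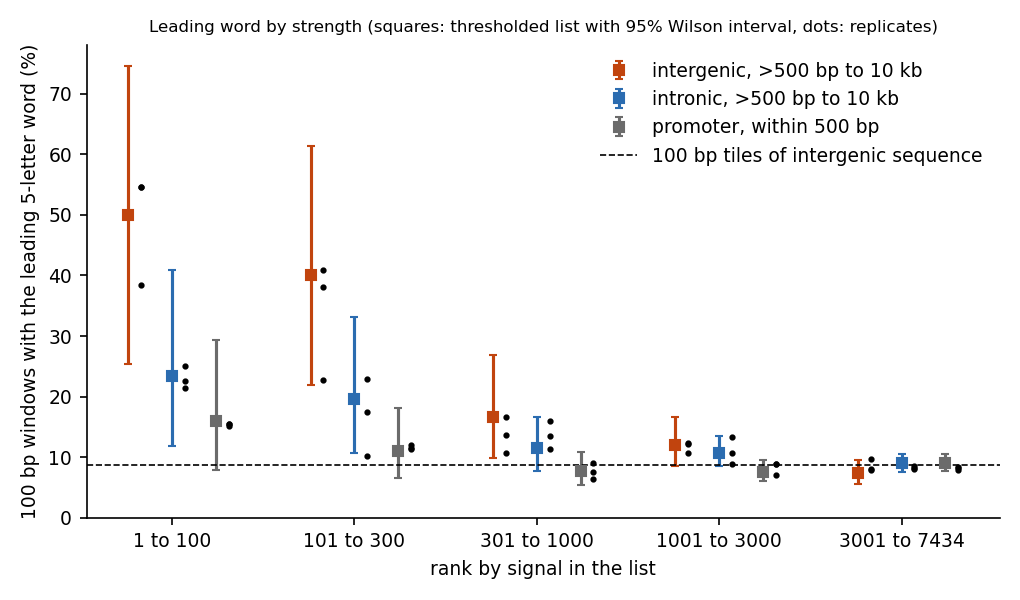
Share of 100 bp windows with AGATC on either strand (vertical axis, %) in 5 bins of rank by signal (horizontal axis) for intergenic, intronic and promoter summits; squares are the thresholded list with 95% Wilson intervals, black dots the 3 replicates' own lists, and the dashed line is 100 bp tiles. The intergenic share runs from 50% in the first bin to 7.33% in the last, and the line of the tiles is at 8.72%. The word was picked from the strongest intergenic windows, which raises the intergenic share at the top ranks.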

How the data were processed

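Peak lists of 3 biological replicates of 1 group were analysed. Per the labels' file notes, the authors called peaks on each replicate and on the 3 pooled, each with a control alignment, and derived the thresholded list with a cutoff on the irreproducible discovery rate. For the aligner, the peak caller and the cutoff, a name or value was not given in the sources used here. Each peak's deposited signal is the authors' score; its scale differs between lists (maximum 36459 in the thresholded list and 15135, 11929 and 9476 in replicates 1, 2 and 3), so it was used within a list only. The deposited −log10 q-value was not used for results. The deposited summit offset gave the summit; for 5 thresholded peaks, an offset beyond the peak was moved to its last base. The replicate lists hold 30000 peaks each, so a site missing from one may still be bound. Read counts are in none of the files: the depth is unknown, and intervals cover counts of summits or windows only. The control library was not used here.

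Positions are 1-based on dm6, from the Release 6 assembly and Ensembl release 115 without pseudogenes and transposons (17896 genes and 23309 TSSs on the main arms). Of 30593 start codons, 99.8% read ATG on it. Densities divide summits by all bases that meet the same rule. Each replicate's 7434 strongest peaks gave 1 value for the mean, the SD and the two-sided exact sign-flip permutation test, with Benjamini-Hochberg adjustment. Motifs (either strand) were sought in 200 bp windows and in non-overlapping 200 bp tiles of the eligible sequence. The counting and the test were checked on simulated data. Python 3.11.15, numpy 2.4.6, pandas 2.3.3 and scipy 1.17.1 were used. No sequence of arm 2R is printed. The summits, gene lists and motifs were chosen with earlier results of these data known. Symbols of accessory gland genes were taken out of the cuticle list after its values were seen, since they share its prefix. Genes named are those nearest to the 20 strongest summits, to the summits over CG13894, to the strongest of each arm and to up to 3 of each list, and those beside the 8 fullest gaps; the genes given for printed motif sequences follow the same list of choices. The words AGATC and AGATGGCG, and the splits by distance of sides and gene ends, were chosen after values were seen. Alternatives were a stricter list, leaving out each replicate, other annotations, distances, windows and overlaps.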

Additional observations from a re-analysis of the deposited data

How the results depend on the processing

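Of 71 alternative values, 61 kept their direction and size class, 8 moved and 2 reversed. The ratio of intergenic to intronic median signal, 0.998, was 1.01 with protein-coding genes only and ran from 0.988 to 1.01 with each replicate left out, above 1 without replicate 1. The number of intergenic summits was 467 in the stronger 50% of the list and from 641 to 714 with each replicate left out. The share found in all 3 replicates was 92.3% in the stronger 50%, 92.9% with every replicate peak allowed and 55.4% with summits within 100 bp. It ran from 64.0 to 71.3% with each replicate left out. That filter keeps peaks found in both other replicates, so fewer summits remain by construction. The upstream share was 60.1% over 1000 to 10000 bp, against 58.4% of bases, and 66.8% with protein-coding genes only, against 65.0% of bases (exact sign-flip p = 0.5 and 0.75). TAATTA in 400 bp windows was at 16.0% in both intergenic and intronic windows.

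No paired analysis was possible because there was 1 group, with no other group to pair it with; differences between classes of summit were taken within each replicate. Depth is unknown, a site missing from a list is not shown to be unbound, and sequence that reads cannot be assigned to was not removed from the densities.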
